A study of Homo sapiens with 6 samples.

Results

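The genes described are 9 components of the Notch pathway: the ligands JAG1, JAG2 and DLL1, the receptors NOTCH1, NOTCH2 and NOTCH3, and the target genes HES1, HEY1 and HEY2. They were chosen by symbol, and all 9 of the 9 listed were measured among 18417 genes, each by 1 probe set annotated to that gene alone. Expression was measured on 6 Affymetrix arrays, 1 per cell line and siRNA, in A673 and SK-N-MC, established lines of Ewing sarcoma, a bone and soft tissue tumour whose driver is a fusion gene of EWSR1 and an ETS factor. Each line received an siRNA against DKK2 (siDKK2, numbered 1 in both lines), an siRNA against ITM2A (siITM2A, numbered 7 in A673 and 1 in SK-N-MC) or a non-silencing control siRNA. DKK2 is a secreted Dickkopf protein that modulates Wnt signalling, and ITM2A is a membrane protein whose knock-down served as the independent comparison. All groups carried transfected siRNA, and untransfected cells were not analysed here. Values are log2 RMA values, on which a step of 1 is a doubling, and each siRNA effect rests on 1 array in each line, so the number of arrays limits the precision.

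Notch signalling passes between touching cells. A ligand of the Jagged or Delta family on one cell pulls on a Notch receptor of its neighbour, proteases of the ADAM family and then gamma-secretase cut the receptor, and the freed intracellular domain joins the DNA-binding protein RBPJ and a Mastermind coactivator in the nucleus. The best known direct targets are the HES and HEY genes, which encode basic helix-loop-helix repressors. In bone the pathway is known for restraining osteoblast differentiation, and in Ewing sarcoma cells JAG1 has been described as repressed by the fusion protein.

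RBPJ binds DNA at a short core, TGGGAA, and the promoters of the HES1 and HEY2 target genes are shown because both carry it and because these genes differed between the lines in opposite directions. Capitals mark the core, read on either strand (TGGGAA, or TTCCCA where it lies on the opposite strand). The sequences run from 250 bases before the gene's start to 50 after it, from RefSeq (GRCh38.p14). HES1 lies at chr3:194135898-194136197 on the plus strand and HEY2 at chr6:125749382-125749681, also on the plus strand.
HES1: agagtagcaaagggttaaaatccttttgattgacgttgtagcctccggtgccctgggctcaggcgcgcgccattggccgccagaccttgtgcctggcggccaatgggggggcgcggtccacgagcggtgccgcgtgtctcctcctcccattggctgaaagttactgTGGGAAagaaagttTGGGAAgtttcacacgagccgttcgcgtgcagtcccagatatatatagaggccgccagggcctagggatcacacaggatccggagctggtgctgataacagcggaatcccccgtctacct
HEY2: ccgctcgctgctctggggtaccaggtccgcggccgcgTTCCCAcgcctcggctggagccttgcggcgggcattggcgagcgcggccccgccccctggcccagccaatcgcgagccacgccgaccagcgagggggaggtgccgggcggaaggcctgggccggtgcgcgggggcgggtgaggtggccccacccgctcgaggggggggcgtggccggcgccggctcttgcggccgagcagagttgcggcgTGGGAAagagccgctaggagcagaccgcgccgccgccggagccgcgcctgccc
With the gene's start counted as 0, the 2 matches in HES1 begin at -84 and -70, and the 2 in HEY2 at -213 and -3. Promoters were listed for 7 of the 9 genes, and JAG1, JAG2, NOTCH1, NOTCH2 and NOTCH3 had 0 matches. Of 35116 human promoters of this length, 24.0% hold at least 1 match. The N-box CACNAG, a motif of HES repressors, was found in HES1 (4 matches), NOTCH1 (2), NOTCH2 (1) and NOTCH3 (1), against 38.0% of all promoters, and the E-box CACGTG in 0 of the 7, against 7.26%. The 2 N-box matches in NOTCH1 overlap each other on opposite strands. A match describes letters and not a bound site.

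Array medians lay between 3.35 and 3.44 for the 33297 probe sets, and arrays correlated across probe sets at 0.986 to 0.991 within a line and 0.959 to 0.965 between lines. DKK2 stood at 7.73 with siDKK2 and 8.64 with control siRNA in A673, and at 6.50 and 8.01 in SK-N-MC (fitted difference -1.21 ± 0.17, limma adjusted p = 0.21). ITM2A stood at 5.03 with siITM2A and 8.52 with control siRNA in A673, and at 6.10 and 9.48 in SK-N-MC. Of the Ewing sarcoma markers, 9 of 10 were measured, with list medians of 7.47 to 7.84 per array, CD99 at 9.79 to 10.73 and the homeobox gene NKX2-2 at 5.31 to 6.25. List medians were 2.34 to 2.56 for 6 endothelial markers, 2.25 to 2.49 for 5 leukocyte markers and 2.65 to 2.94 for 6 epithelial markers. Among the epithelial markers KRT18 stood at 9.09 to 9.76, KRT8 at 4.71 to 5.86 and EPCAM at 2.11 to 2.44. The 6 fibroblast markers had medians of 3.87 to 4.46, with COL1A2 at 7.58 to 9.34, PDGFRA at 2.01 to 2.38 and LUM at 1.83 to 2.14. Interferon-response genes, 14 of which were measured, had median differences from control of -3.23 (A673) and -1.17 (SK-N-MC) with siDKK2 and of -0.84 (A673) and -0.32 (SK-N-MC) with siITM2A. Their part in the Notch values below was not tested.

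The clearest contrast among the Notch genes lay between the lines. The ligand gene JAG1 and the target gene HES1 were higher in A673, by 2.32-fold and 2.53-fold, while JAG2 and NOTCH1 were lower there, by 2.22-fold and 1.55-fold. HEY2 was lower there as well, at -0.58 on the log2 scale, from dim values. DLL1, NOTCH2, NOTCH3 and HEY1 did not pass the test (limma, siRNA as a block, 3 arrays per line, adjusted p under 0.05 over all genes). Thus 5 of the 9 genes passed, 2 higher and 3 lower in A673. Of all 18417 genes 28.5% passed, 13.8% higher and 14.7% lower, so line differences were common. Among genes at or above the median level 44.6% passed, beside 4 of the 7 Notch genes at that level. For 3 of the 9 genes every A673 array lay above every SK-N-MC array, against 18.1% of all genes, and for 3 every A673 array lay below, against 20.8%. With siRNA as a block, these p-values set the line difference against how far it varied between the siRNAs, with that spread moderated over all genes. Nothing in the labels says that the 3 arrays of a line came from separate cultures. The p-values therefore cannot be read as measuring a spread between cultures. RNA came from whole cultures, in which fewer expressing cells and less RNA per cell cannot be told apart.

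Other marker lists also differed between the lines. Of the 14 interferon-response genes 12 were called higher in A673 and 0 lower, which is 85.7%, with a median difference of 1.64, although for 1 of the 14 alone did every A673 array lie above every SK-N-MC array. Of the 6 fibroblast markers 4 were called, and they ran in opposite directions. The collagen gene COL3A1 averaged 6.33 on the A673 arrays, against 3.61 on those of SK-N-MC, and COL1A1 averaged 6.89 and 5.95, while COL1A2 averaged 7.66 and 9.15 and the proteoglycan gene DCN 2.20 and 4.53. Of the 9 Ewing sarcoma markers 3 were called higher and 2 lower in A673. CCND1, among those higher, is also counted with the other reported Notch targets below. Of the endothelial, leukocyte and epithelial markers 0 were called. What part these lists have in the Notch differences between the lines was not tested.

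**Figure D1:**
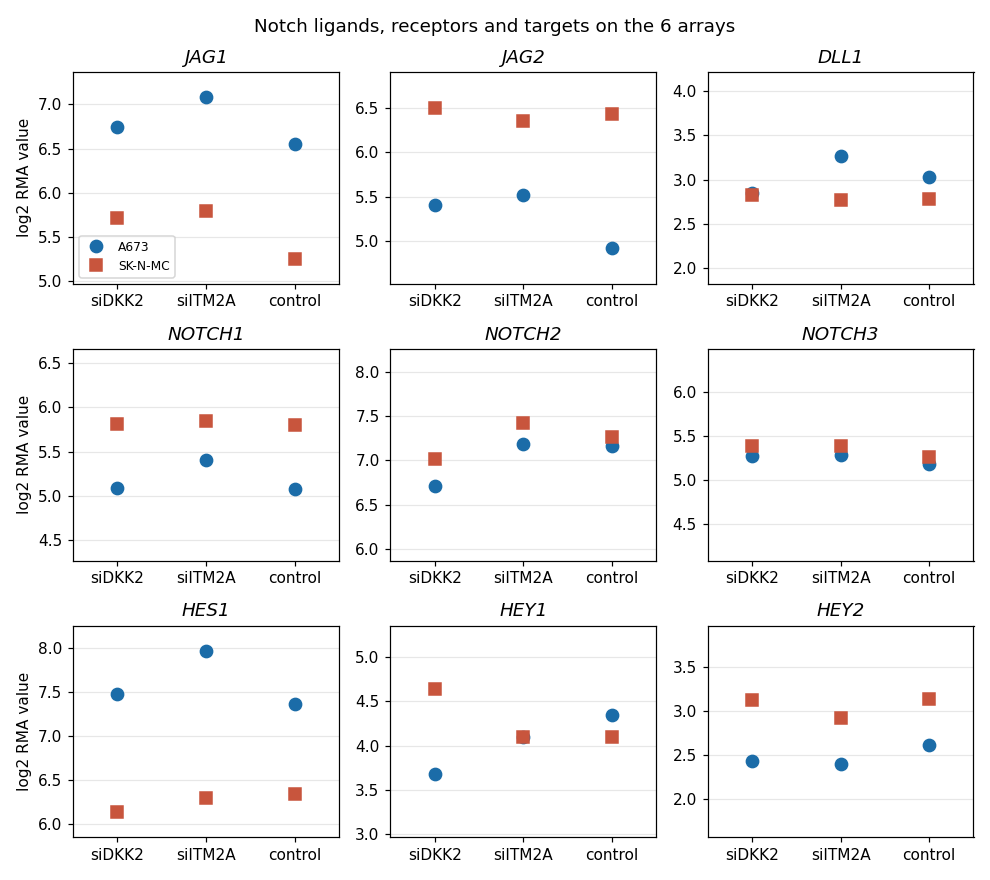
Each panel plots the log2 RMA value of 1 gene on the 6 arrays, by siRNA along the horizontal axis, with circles for A673 and squares for SK-N-MC; each point is 1 array and every panel spans the same number of log2 units. The lines separate for JAG1, HES1, JAG2, NOTCH1 and HEY2, while the HEY1 points cross, with A673 at 3.68 and SK-N-MC at 4.64 under siDKK2.

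Among the ligands, JAG1 and JAG2 had opposite preferences for the lines. JAG1, the Jagged ligand that starts Notch signalling in many tissues, stood at 6.75 with siDKK2, 7.09 with siITM2A and 6.56 with control siRNA in A673. In SK-N-MC it stood at 5.72, 5.79 and 5.25 in the same order. The control array was the lowest of its line in both lines, and the lowest A673 array lay 0.77 above the highest SK-N-MC array. The fitted difference was 1.21 ± 0.11 for A673 minus SK-N-MC (SE, n = 3 arrays per line, adjusted p = 8.3e-05). Of the neighbours in the order of the 6 levels, the SK-N-MC siITM2A and siDKK2 arrays differed by 0.07, less than the residual SD of 0.14. The other gaps exceeded it, the smallest being 0.19 between the A673 siDKK2 and control arrays. That SD is of 1 array and a gap between 2 arrays varies more, so the order is only a description.

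JAG2, the second Jagged ligand, stood at 5.41 with siDKK2, 5.51 with siITM2A and 4.92 with control siRNA in A673, against 6.51, 6.36 and 6.43 in SK-N-MC. It was thus higher on every SK-N-MC array, and the SK-N-MC arrays spanned 0.15 while the A673 arrays spanned 0.60. The fitted difference was -1.15 ± 0.14 (adjusted p = 0.00037). It was -1.10 between the siDKK2 arrays, -0.84 between the siITM2A arrays and -1.51 between the control arrays.

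DLL1, a Delta-like ligand, was dim throughout, at 2.85, 3.27 and 3.03 in A673 (siDKK2, siITM2A and control) and at 2.82, 2.77 and 2.78 in SK-N-MC. These values lay between the 28.8th and 39.7th percentile of all genes on their arrays. The A673 arrays were all above the SK-N-MC arrays, but the lowest A673 array was only 0.03 above the highest SK-N-MC array, and the fitted difference of 0.26 ± 0.12 did not pass (adjusted p = 0.17). Its 95% interval ran from -0.02 to 0.53. Background was not measured, so whether DLL1 was expressed cannot be read from these values.

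Of the receptors, NOTCH1 differed between the lines and the other two did not pass. NOTCH1 stood at 5.08 with siDKK2, 5.40 with siITM2A and 5.08 with control siRNA in A673, against 5.81, 5.85 and 5.80 in SK-N-MC. All SK-N-MC arrays were higher, within 0.05 of each other, and the A673 siITM2A array was the highest of its line. The fitted difference was -0.64 ± 0.11 (adjusted p = 0.0028).

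NOTCH2, a receptor with a structure close to that of NOTCH1, stood at 6.71, 7.19 and 7.16 in A673 (siDKK2, siITM2A and control) and at 7.01, 7.42 and 7.27 in SK-N-MC. The siDKK2 array was the lowest of its line in both lines, and the lines overlapped. The line difference was -0.22 ± 0.11 (adjusted p = 0.18, 95% interval -0.46 to 0.03). A further probe set, annotated to NOTCH2 together with the near-identical NOTCH2NLA and NOTCH2NLB, had a slightly higher mean but does not tell these genes apart and was left out. It read 6.84, 7.10 and 7.11 in A673 and 7.39, 7.37 and 7.25 in SK-N-MC. There the SK-N-MC siDKK2 array was the highest of its line, not the lowest, so the 2 probe sets disagree on NOTCH2 in SK-N-MC. Cross-hybridisation of either probe set to the copies was not tested.

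NOTCH3, a receptor best known from vascular smooth muscle, varied least of the 9 genes, with a range of 0.20 over all 6 arrays. It stood at 5.26, 5.29 and 5.18 in A673 (siDKK2, siITM2A and control) and at 5.38, 5.39 and 5.26 in SK-N-MC. No neighbours in the order of its levels differed by more than the residual SD of 0.13. The line difference was -0.10 ± 0.10 (adjusted p = 0.57, 95% interval -0.33 to 0.14).

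The 3 target genes did not share a direction between the lines. HES1, a repressor of differentiation genes and the classical Notch target, stood at 7.47 with siDKK2, 7.96 with siITM2A and 7.36 with control siRNA in A673. In SK-N-MC it stood at 6.14, 6.30 and 6.34. The lowest A673 array was 1.02 above the highest SK-N-MC array, and the 3 SK-N-MC arrays spanned 0.20, against 0.60 in A673. The fitted difference was 1.34 ± 0.14 (adjusted p = 0.00015).

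HEY2, a repressor known from arterial and cardiac development, went the other way. It stood at 2.44, 2.40 and 2.61 in A673 (siDKK2, siITM2A and control) and at 3.12, 2.92 and 3.14 in SK-N-MC. Every SK-N-MC array was higher, and the fitted difference was -0.58 ± 0.11 (adjusted p = 0.0034). These levels lay between the 18.7th and 37.4th percentile of all genes on their arrays, where RMA values are compressed, and in A673 they were near the medians of the endothelial and leukocyte markers. Whether HEY2 was expressed in A673 therefore cannot be read, and no exact fold is given.

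HEY1, a relative of HEY2 that is also induced by Notch, changed its order of the lines with the siRNA. It stood at 3.68 with siDKK2, 4.10 with siITM2A and 4.35 with control siRNA in A673, against 4.64, 4.09 and 4.09 in SK-N-MC. Under siDKK2 the A673 array was the lowest of the 6 and the SK-N-MC array the highest. The other 4 arrays lay between 4.09 and 4.35. The largest gap between neighbours there, 0.25, was just under the residual SD of 0.26, a spread that includes the siDKK2 arrays. The line difference was -0.23 ± 0.21 (adjusted p = 0.50), and without either siDKK2 array it was 0.13.

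**Figure D2:**
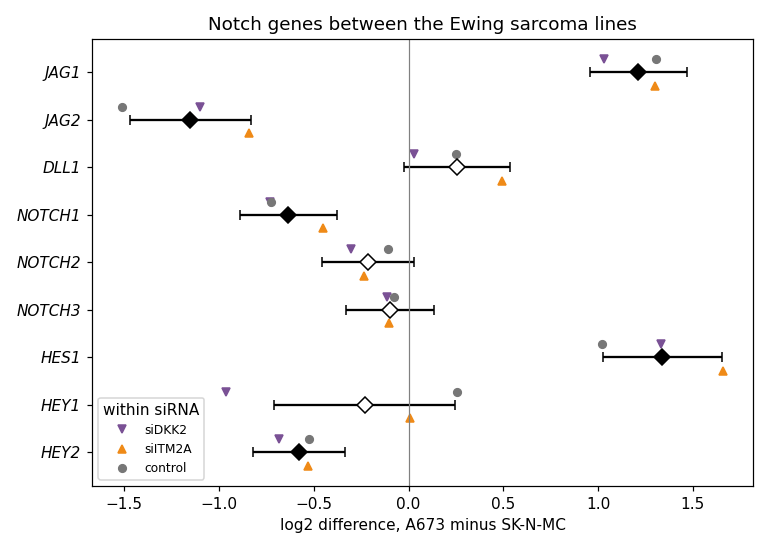
Rows are the 9 genes and the horizontal axis is the log2 difference, A673 minus SK-N-MC; diamonds are fitted differences with 95% intervals (filled where the adjusted p was under 0.05) and small symbols the difference within each siRNA. JAG1 at 1.21 and HES1 at 1.34 stand right of 0, and JAG2 at -1.15, NOTCH1 at -0.64 and HEY2 at -0.58 left of it, while the symbols for HEY1 spread from -0.96 to 0.26.

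Silencing DKK2 moved none of the 9 genes past the threshold in a test over both lines. DKK2 itself did not pass in that test either, so the test does not show that siDKK2 left these genes unchanged. Nearest to the threshold among the 9 were NOTCH2 and JAG1. NOTCH2 was lower in both lines with siDKK2 than with control siRNA (-0.45 in A673 cells and -0.25 in SK-N-MC cells). JAG1 was higher in both (0.19 and 0.47). The fitted differences were -0.35 ± 0.13 for NOTCH2 (SE, n = 2 lines, adjusted p = 0.51) and 0.33 ± 0.14 for JAG1 (adjusted p = 0.55). Of the 9 genes 0 passed over all genes (limma, cell line as a block), beside 0.0109% of all genes, and 2 had an unadjusted p under 0.05, beside 8.68% of all genes. NOTCH2 from the probe set shared with the NOTCH2NL genes differed by -0.06 ± 0.14, with -0.26 in A673 cells and 0.14 in SK-N-MC cells.

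With siDKK2, 4 of the 9 genes were higher in both lines, against 23.2% of all genes, 2 were lower in both, against 31.6%, and 3 had opposite signs, against 45.0%. JAG2 was higher by 0.49 in A673 cells and 0.07 in SK-N-MC cells, with a 95% interval of the fitted difference from -0.11 to 0.67. NOTCH1 had differences of 0.0023 in A673 cells and 0.0085 in SK-N-MC cells and an interval from -0.31 to 0.32. HES1 differed by 0.11 in A673 cells and -0.20 in SK-N-MC cells, and its interval ran from -0.43 to 0.34. HEY1 had the largest single differences, -0.67 in A673 cells and 0.55 in SK-N-MC cells, which nearly cancelled in the fitted -0.06 ± 0.26. Whether the lines differ in their HEY1 response cannot be tested with 1 array per line and siRNA. NOTCH3, HEY2 and DLL1 had fitted differences of 0.10, -0.10 and -0.07.

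With siITM2A the leading gene was JAG1, which differed by almost the same amount in both lines, 0.53 in A673 cells and 0.54 in SK-N-MC cells. The siITM2A numbers in the labels differ between the lines, so siITM2A values over both lines may combine 2 different siRNAs. The fitted difference was 0.54 ± 0.14 (n = 2 lines, 95% interval 0.22 to 0.85), and it did not pass over all genes (adjusted p = 0.65). Of the 9 genes 0 passed (limma), beside 0.0109% of all genes, and JAG1 alone had an unadjusted p under 0.05, beside 6.91% of all genes. Both siRNAs were set against the same control arrays, so the higher JAG1 with each is not 2 separate results. HES1 differed by 0.60 in A673 cells and -0.04 in SK-N-MC cells, JAG2 by 0.60 and -0.07, and NOTCH1 by 0.32 and 0.05. HEY2 differed by -0.22 in A673 cells and -0.21 in SK-N-MC cells, with a fitted value of -0.22 ± 0.13 (adjusted p = 0.82). DLL1, NOTCH2, NOTCH3 and HEY1 had fitted differences of -0.13 to 0.12. In all, 4 of the 9 were higher in both lines, against 21.2% of all genes, 2 were lower in both, against 30.7%, and 3 had opposite signs, against 47.9%.

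**Figure D3:**
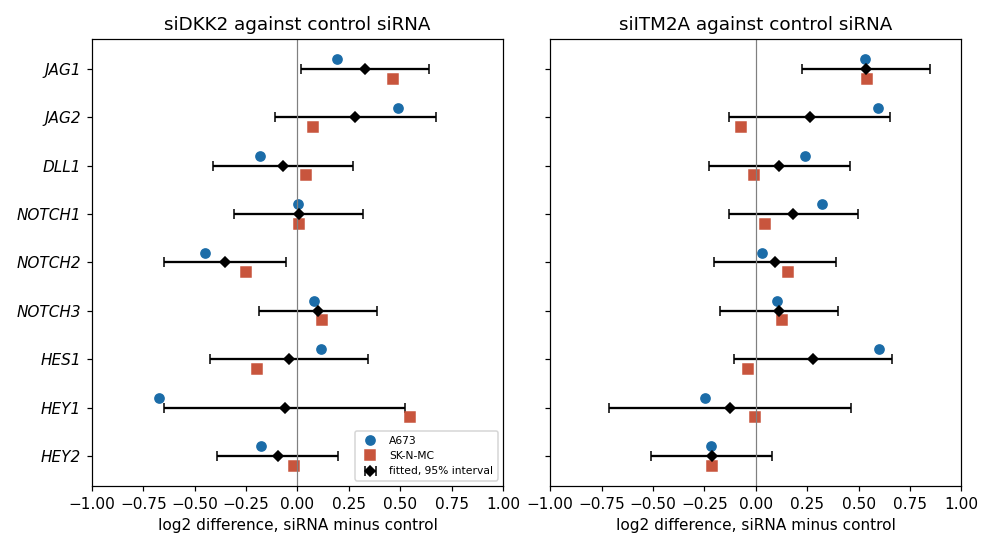
Rows are the 9 genes and the horizontal axis is the log2 difference of siDKK2 (left panel) or siITM2A (right panel) minus control siRNA; circles are A673, squares SK-N-MC, 1 array pair each, and diamonds the fitted value with its 95% interval. The JAG1 symbols for siITM2A coincide at 0.53 and 0.54, and the HEY1 symbols for siDKK2 lie apart at -0.67 and 0.55.

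Set against each other directly, siDKK2 and siITM2A differed most for NOTCH2. It was lower with siDKK2, at -0.48 in A673 cells and -0.41 in SK-N-MC cells. The fitted difference was -0.45 ± 0.13 (limma adjusted p = 0.45), and -0.12 ± 0.14 from the shared probe set. The control values do not enter these differences, but the control arrays share in the estimate of their spread. Again 0 of the 9 passed (limma), beside 0.0163% of all genes, and NOTCH2 alone had an unadjusted p under 0.05, beside 8.32% of all genes. HES1 followed at -0.49 in A673 cells and -0.16 in SK-N-MC cells, with an interval of the fitted difference from -0.71 to 0.06. JAG1 differed by -0.34 and -0.07, and NOTCH1 by -0.32 and -0.04. Of the 9 genes 5 were lower with siDKK2 in both lines, against 27.5% of all genes, and 1, HEY2, was higher in both, against 27.4%.

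The rest of the pathway was read from 8 lists of 59 measured genes. With siDKK2 0 of 59 passed against control siRNA (limma), beside 0.0109% of all genes, and 7 had an unadjusted p under 0.05, beside 8.68% of all genes; the median difference was -0.04, beside -0.02 over all genes. Among the cleavage enzymes, ADAM10, the protease that makes the first ligand-induced cut, differed by -0.58 in A673 cells and -0.50 in SK-N-MC cells (fitted -0.54 ± 0.14, adjusted p = 0.35). PSEN2, a catalytic subunit of gamma-secretase, differed by -0.30 and -0.65. In the nuclear complex the acetyltransferase gene KAT2B, dim at 2.74 to 3.51, differed by -0.40 and -0.48. Among co-repressors TLE4 differed by -0.41 and -0.65. The TLE4 value with siDKK2 in SK-N-MC, 2.48, was at the level of the endothelial and leukocyte markers. Of the inhibitors, NRARP, a feedback inhibitor that Notch itself induces, differed by -0.38 and -0.28, and NUMB, which directs receptor to degradation, by -0.44 and -0.23. The HES family gene HES5 differed by 0.31 and 0.23 and the ligand-like gene DLK1, dim at 2.90 to 3.48, by 0.23 and 0.24. ID3, an inhibitor of basic helix-loop-helix factors, differed by -0.15 and -0.77, and the oxidase gene NOX4, dim on every array at 2.05 to 2.48, by 0.20 and 0.36. The glycosyltransferase gene RFNG differed by 0.27 and 0.21. The other 5 genes given by the naming rule, DLL4, POFUT1, MAML2, TLE1 and HES7, had fitted differences of -0.31 to 0.21. DTX2, a Deltex ubiquitin ligase gene chosen after its values were seen, had opposite signs in the lines. It stood at 3.59 with siDKK2 and 4.79 with control siRNA in A673, and at 3.53 and 3.42 in SK-N-MC. When the SK-N-MC control array was left out, the DTX2 fitted difference was -1.16. That fit leaves A673 as the only line with a control array.

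With siITM2A 0 of 59 passed as well (limma), beside 0.0109% of all genes, and 5 had an unadjusted p under 0.05, beside 6.91% of all genes, with a median difference of -0.02, beside -0.03 over all genes. TLE4 differed by -0.31 in A673 cells and -0.76 in SK-N-MC cells, where its siITM2A value, 2.37, was at the level of the endothelial and leukocyte markers. MAML3, a Mastermind coactivator, differed by 0.22 and 0.54, and HES5 by 0.19 and 0.42. The control arrays are those used for siDKK2, so the same sign with both siRNAs, as for TLE4 and HES5, is not a separate result. FBXW7, which marks the cleaved receptor for degradation, differed by -0.26 and -0.65. APH1A, another gamma-secretase subunit, differed by -0.33 and -0.25. POFUT1, which adds the fucose that receptors need to bind ligand, differed by -0.23 and -0.32. ID3 differed by 0.36 and 0.20 (fitted 0.28 ± 0.17, adjusted p = 0.82). The other 9 genes given by the naming rule, DLK1, DLL3, NEURL1, ADAM10, KAT2A, TLE2, NUMB, HES4 and CDKN1A, had fitted differences of -0.29 to 0.26.

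In the direct comparison of siDKK2 with siITM2A 0 of 59 passed (limma), beside 0.0163% of all genes, and 5 had an unadjusted p under 0.05, beside 8.32% of all genes. The leading genes there were ID3, at -0.51 in A673 cells and -0.97 in SK-N-MC cells (fitted -0.74 ± 0.17, adjusted p = 0.32), and ID1, at -0.48 and -0.94 (fitted -0.71 ± 0.18, adjusted p = 0.38). For both ID genes the direct difference holds a lower value with siDKK2 and a higher one with siITM2A than with control siRNA. Against control, ID1 differed by -0.41 in A673 cells and -0.10 in SK-N-MC cells with siDKK2, and by 0.06 and 0.84 with siITM2A. KAT2B, dim at 2.74 to 3.51, differed by -0.45 and -0.41 and PSEN2 by -0.52 and -0.36. The other 12 genes given by the naming rule had fitted differences of -0.34 to 0.28.

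Between the lines 29 of the 59 other pathway genes passed, 16 higher and 13 lower in A673, which is 49.2%, beside 28.5% of all genes. Of those at or above the median level 19 of 35 passed, which is 54.3%, beside 44.6% of all genes at that level. Among the remaining ligands and receptors 0 were higher and 2 lower in A673, DLL3 (-0.86 ± 0.15) and DLK2 (-0.49 ± 0.12). DLL3 was dim in A673, at 2.94 to 3.27. Of 8 genes of ligand endocytosis and receptor glycosylation 3 were higher, led by POGLUT1 (0.60 ± 0.13), which adds glucose to the receptor. Next was LFNG (0.44 ± 0.14), which changes which ligands a receptor answers. LFNG was dim, at 2.68 to 3.40. Its line difference was 0.05 between the control arrays, against 0.62 with siDKK2 and 0.65 with siITM2A. Of 8 cleavage genes 4 were higher and 1 lower. FURIN, which cuts the receptor during its transport to the cell surface, stood 1.75-fold higher in A673, and PSEN2 1.93-fold lower.

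In the nuclear complex 3 of 8 were higher and 3 lower. The Mastermind coactivator gene MAML2 was higher in A673, at 3.55, 3.15 and 3.83 (siDKK2, siITM2A and control) against 2.09, 2.31 and 2.38 in SK-N-MC, and the acetyltransferase gene KAT2A was 2.80-fold lower. The SK-N-MC values of MAML2 were at the level of the endothelial and leukocyte markers, so no exact fold is given for it. Of 7 co-repressor genes 1 was higher and 2 were lower. That one, TLE4, had the largest difference of the 59 (2.16 ± 0.12, limma adjusted p = 5.4e-06). It stood at 4.66, 4.75 and 5.06 in A673 (siDKK2, siITM2A and control) and at 2.48, 2.37 and 3.13 in SK-N-MC. The SK-N-MC values with siDKK2 and siITM2A were at the level of the endothelial and leukocyte markers. No exact fold is given for TLE4 either. TLE2 was 2.06-fold lower in A673. Of 9 inhibitors and turnover genes 2 were higher, among them the Deltex gene DTX3 (2.13-fold), and 1 was lower, NRARP.

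Several reported Notch targets opposed each other between the lines. NRARP stood at 4.35, 4.53 and 4.72 in A673 and at 5.55, 5.45 and 5.83 in SK-N-MC (-1.08 ± 0.11, adjusted p = 0.00015), opposite in direction to HES1. HES6, a family member that counteracts HES1, was lower in A673 as well, by 2.04-fold, and HEYL was higher, with a log2 difference of 0.39 from dim values. Of 8 other reported targets 2 were higher and 3 lower in A673. The cell cycle inhibitor gene CDKN1A was 3.37-fold higher, at 5.68, 5.81 and 5.63 in A673 and 3.70, 4.21 and 3.96 in SK-N-MC. ID3 was 2.52-fold lower, at 6.62, 7.13 and 6.77 in A673 and 7.60, 8.57 and 8.36 in SK-N-MC. These genes also answer to other pathways, and Notch activity was not measured.

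**Figure D4:**
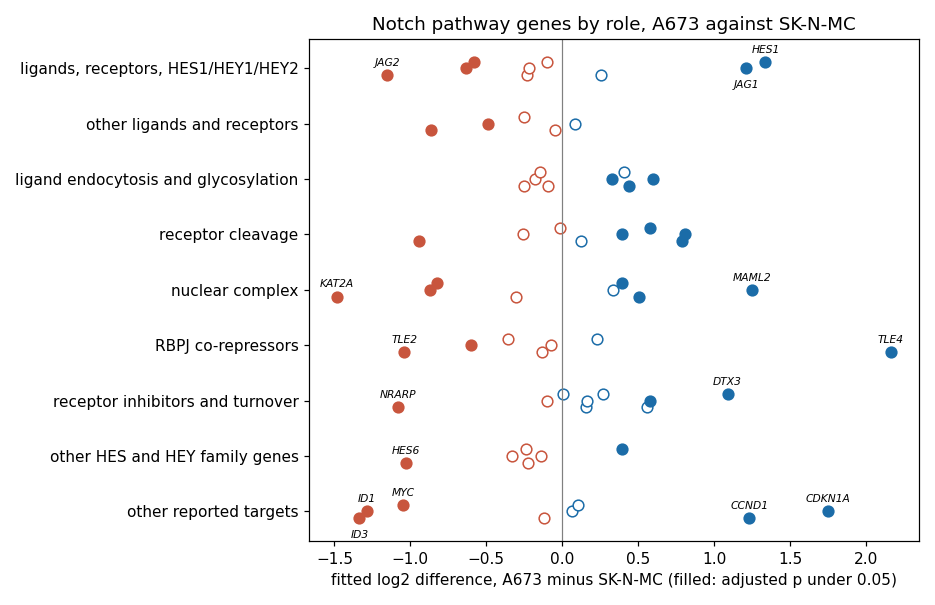
Each circle is 1 gene at its fitted log2 difference, A673 minus SK-N-MC, in rows by role, filled where the adjusted p was under 0.05; genes past the threshold with a difference beyond 1 in size are named, and vertical scatter within a row only separates points. Filled points lie on both sides of 0 in most rows, from KAT2A at -1.48 to TLE4 at 2.16.

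JAG1, JAG2 and HES1 spanned at least 1 over the 6 arrays, and the genes with the most similar profiles were sought for each as the smallest root mean square difference after each gene was centred on its own mean. For JAG1 these were ELOVL6, TIMP2 and EPN2, at 0.09 each. For JAG2 they were ZMYM3 at 0.07 and MBLAC2 and GRK6 at 0.09 each. For HES1 they were PXDC1 at 0.06 and BCAR1 and DYNC2H1 at 0.09 each. Pearson correlations with the member ran from 0.991 to 0.997 over the 6 arrays. They describe 6 arrays that split by line, and no test was made of them.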

How the data were processed

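Total RNA was amplified with a whole-transcript kit and biotin-labelled for Affymetrix arrays, per the labels' protocols. The deposited values are taken as log2 values from their range of 1.02 to 13.4; RMA and Affymetrix Expression Console are named in the submitters' processing notes, and RMA corrects background, normalizes between arrays and summarises probes. The software version, settings and build were not given in the sources used. RMA compresses dim values, so folds of dim genes are understated.

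Of 33297 probe sets 19460 had 1 symbol in the platform annotation, which can be old; 19429 Entrez numbers matched the current table, with 0 new symbols. No gene was named from the 1754 probe sets with more than 1 symbol or the 12083 without any. The brightest probe set by its mean over the arrays stood for each of the 769 genes that had several. This left 18417 genes.

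limma 3.58.1 (lmFit and eBayes, R 4.3.3) was fitted to the 6 arrays on siRNA plus line, with 2 residual degrees of freedom moderated to 8.28, and was tested on simulated data. Benjamini-Hochberg adjustment ran over all genes, with a threshold of 0.05, in 4 comparisons. The line is a block because the labels place 1 array of each siRNA in each line; deviations of same-line arrays from the siRNA means correlated at 0.85 to 0.87. No test within a line was possible, since it holds 1 array of each siRNA.

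The 9 genes and the gene lists were chosen with earlier results of these data known, so no count supports the choice. All 9 genes were named; of the other lists up to 2 genes per list and comparison, by the smaller of the lines' differences (siRNAs) or the size of the difference among those past the threshold (lines); and the 3 nearest profiles of each gene spanning at least 1. Alternatives were an intensity trend, no block, a filter on dim genes, median centring, repeated quantile normalization, the mean of probe sets, the 4 arrays compared, and leaving out each array.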

Additional observations from a re-analysis of the deposited data

Results flagged for a closer look

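Every siRNA difference among the 9 Notch genes that had opposite signs in the lines is given here. Each rests on 1 array per line and siRNA, so none of these differences between lines was tested, and small values of opposite sign are common: 45.0% of all genes had opposite signs with siDKK2 against control, 47.9% with siITM2A against control and 44.6% between the siRNAs.

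HEY1 differed by -0.67 in A673 cells and 0.55 in SK-N-MC cells with siDKK2 against control, and by -0.42 and 0.55 with siDKK2 against siITM2A. The HEY1 line difference, A673 minus SK-N-MC, was -0.96 with siDKK2, 0.0086 with siITM2A and 0.26 with control siRNA. With siDKK2 against control HES1 differed by 0.11 in A673 cells and -0.20 in SK-N-MC cells, and DLL1 by -0.18 and 0.041. With siITM2A against control HES1 differed by 0.60 in A673 cells and -0.040 in SK-N-MC cells, JAG2 by 0.60 and -0.072, and DLL1 by 0.24 and -0.0067. Between siDKK2 and siITM2A JAG2 differed by -0.11 in A673 cells and 0.15 in SK-N-MC cells, and DLL1 by -0.42 and 0.048.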

How the results depend on the processing

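The 5 Notch genes past the threshold between the lines passed in each alternative that tested them; with only genes at or above the median level 4 passed, since HEY2 and DLL1 were not tested there. The count was 5 without any 1 array. Dropping either array of an siRNA gave the same fit between the lines, so these are fewer separate checks than arrays. In a comparison of siRNAs, dropping an array of the siRNA not compared gave the same fit as the 4 arrays alone. Their adjusted p over the alternatives ran from 1.2e-05 to 0.0030 for JAG1, from 1.2e-05 to 0.0032 for HES1, from 7.6e-05 to 0.0028 for JAG2, from 0.0018 to 0.019 for NOTCH1 and from 0.0020 to 0.025 for HEY2. In the siRNA comparisons 0 of the 9 passed in any alternative. The counts over all genes moved. For siDKK2 against control 2 genes became 7 with an intensity trend, 0 with no replicate block, 0 with the 4 arrays alone, and 0 to 60 without 1 array (0 when the A673 siDKK2 array or either siITM2A array was dropped, 45 when it was the control and 60 when it was the siDKK2 array of SK-N-MC). For siITM2A against control 2 became 0 with no replicate block and 0 to 4 without 1 array (0 without either siITM2A array, 4 when the control of SK-N-MC was dropped). For siDKK2 against siITM2A 3 became 16 with an intensity trend, 0 with no replicate block, 6 with brighter genes only, 18 with the 4 arrays alone and 1 to 50 without 1 array (1 without either siITM2A array, 18 without either control array, 50 when the siDKK2 array of SK-N-MC was dropped). Other pathway genes past the threshold with siDKK2 numbered 0 to 1 without 1 array, the 1 being DTX2 when the control of SK-N-MC was dropped. Without the line block 0 of the 9 passed for any siRNA, as in the fit with it.

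Some directions turned, none of them of a difference that had passed. Between siDKK2 and siITM2A NOTCH3 turned to 0.016 with median-centred arrays, from -0.015. Without 1 array the ranges that cross 0 were, with siDKK2 against control, -0.24 to 0.10 for DLL1, -0.28 to 0.20 for HES1, -0.61 to 0.48 for HEY1 and -0.066 to 0.077 for NOTCH1. With siITM2A against control they were -0.062 to 0.29 for DLL1, -0.49 to 0.24 for HEY1 and -0.0087 to 0.53 for JAG2. Between the siRNAs they were -0.48 to 0.61 for HEY1 and -0.21 to 0.25 for JAG2, and between the lines -0.48 to 0.13 for HEY1. Other fitted values kept their sign but moved by over 1.5 times, among them the following. With siDKK2 against control JAG2 ran from 0.011 (A673 control array dropped) to 0.55 (SK-N-MC control array dropped), JAG1 from 0.19 to 0.47 and HEY2 from -0.18 to -0.018. With siITM2A against control HES1 ran from 0.038 to 0.52, NOTCH1 from 0.045 to 0.32 and NOTCH2 from 0.010 to 0.17. Between the siRNAs HES1 ran from -0.56 to -0.080, being lowest in size without the A673 siITM2A array, JAG1 from -0.34 to -0.072, NOTCH1 from -0.32 to -0.039, DLL1 from -0.36 to -0.0075 and HEY2 from 0.039 to 0.20. The cause was not tested. NOTCH2 from the probe set shared with NOTCH2NL genes, an alternative chosen after seeing the data, differed by -0.06, 0.06 and -0.12 in the siRNA comparisons and by -0.32 between the lines (adjusted p = 0.078).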
